A study of Mus musculus with 6 samples.

Results

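Immunoglobulin Fc receptors are the proteins through which cells sense antibodies, by binding the constant (Fc) part of the antibody chain. They were taken as a list of 7 genes, *Fcgr1*, *Fcgr2b*, *Fcgr3*, *Fcgr4*, *Fcer1g*, *Fcgrt* and *Fcmr*, and all 7 were found by symbol among the 20076 genes of the deposited table. Polyadenylated RNA was sequenced from whole primary tumors, 3 grown in wild-type (WT) mice and 3 in *Tgm2* knockout mice, 6 weeks after cells of the line ID8 *Trp53-/- Brca1-/-* had been placed in both ovarian bursae. This line is a mouse ovarian cancer model in which both genes were disrupted with CRISPR-Cas9. The WT mice were C57BL/6 and the knockout mice were a line obtained from another laboratory, both bred in-house. The paper does not say whether the groups were littermates. It gives an age of 6 to 10 weeks for all mice, without naming the step at which this held. Both groups received the same cancer cells, so only the host lacked *Tgm2* and the injected cells could still transcribe it. The deposited values are normalized counts that sum to between 32316613 and 37717165 per tumor.

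Fc receptors fall into classes with different tasks. The Fcγ receptors bind IgG, mainly on macrophages, monocytes, neutrophils, NK cells and B cells, and either activate the cell through the ITAM motif of a partner chain or restrain it through an ITIM motif of their own. The neonatal receptor binds IgG and albumin inside endothelial cells and macrophages and protects them from breakdown, and a separate receptor binds IgM on lymphocytes. In tumors, activating Fcγ receptors are known for the killing and engulfing of antibody-coated cells.

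The labels call the material cancer cells, but transcripts of several cell types were present. The epithelial genes *Krt8* and *Wt1* had 10373 to 21948 and 13131 to 20641 normalized counts over the 6 tumors, and the macrophage genes *Lyz2* and *C1qa* had 13429 to 52341 and 6142 to 23881. WT tumor 3 stood apart in epithelial genes: *Epcam* was at 8047 and *Cdh1* at 6588 there, against at most 1307 and 1876 in the other 5 tumors. The knocked-out gene *Tgm2* had 12155 to 14978 normalized counts over the WT tumors and 5853 to 8157 over the knockout tumors, so every tumor fits its label (exact permutation test, two-sided, p = 0.1, which is the lowest that 3 tumors against 3 allow). In bulk tumors, fewer cells of a type and less RNA per cell cannot be told apart.

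None of the Fc receptor genes passed the test, while *Igha*, *Ighg2b*, *Ighg2c*, *Igkc* and *Jchain* of the antibody genes did. Over the 10 antibody genes considered (the heavy chain constant genes, the kappa constant gene and *Jchain*), WT tumors 1 to 3 had summed normalized counts of 26353, 18907 and 37840, and knockout tumors 1 to 3 had 466345, 518494 and 877597. For the 7 receptor genes, these sums were 16619, 12534 and 8847 in WT tumors against 9692, 22847 and 17331 in knockout tumors. The antibody sums separated the groups completely, and the receptor sums overlapped, with knockout tumor 1 lower than 2 of the WT tumors. A linear model (limma, on log2(value + 1), with Benjamini-Hochberg adjustment over all 19667 genes tested) called, at an adjusted p of 0.05 and a log2 fold change beyond 1 in either direction, these 5 of the 10 antibody genes higher in the knockout tumors and 0 of the 7 receptor genes. The number of antibody genes called was 1 without WT tumor 2, 2 without WT tumor 1 and 4 to 6 without any other tumor, and 0 when the level of white adipocyte markers in each tumor entered the model as a covariate. That level itself separated the groups, with a mean log2 of 9.17 to 10.2 in WT and 10.8 to 12.5 in knockout tumors. The fit with it called 0 of all 19667 genes. In the fit to all 6 tumors without a covariate, 0.102% of all genes tested were called, all of them higher. At an unadjusted p of 0.05, 0 of the 7 receptor genes passed, against 5.78% of all genes tested. Of the alternatives, the adipocyte covariate put *Fcgr1* and *Fcgr3* past that p in the direction of lower values (unadjusted p = 0.022 and 0.014 from limma). Leaving out WT tumor 1 put *Fcgr2b* past it (0.026), and leaving out knockout tumor 1 put *Fcgr4* past it (0.020), both toward higher values.

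The median log2 fold change was 4.37 for the antibody genes, 0.46 for the receptor genes and -0.03 for all genes tested; without WT tumor 3 the first 2 medians were 4.66 and 0.25. All 7 receptor genes had a positive log2 fold change, between 0.11 and 0.70, as had 47.3% of all genes tested. Those of *Fcgr1* and *Fcgr3* were negative without WT tumor 3 (-0.19 and -0.07) or knockout tumor 2 (-0.08 and -0.26). The lowest limma adjusted p among the receptor genes was 0.889. The receptor groups overlapped in all 7 genes, whereas 7 of the 10 antibody genes had every knockout tumor above every WT tumor. Of all genes tested, 5.18% had all knockout tumors higher and 5.33% all knockout tumors lower, 10.5% together. The highest upper bound of a 95% interval was 1.52 among the 6 abundant receptor genes (*Fcgr4*) and 2.51 for the scarce *Fcmr*. Some intervals of antibody genes that were not called overlap those of the receptors, such as that of *Ighm* from 0.83 to 2.94. That of *Ighg1*, also not called, ran from 4.08 to 7.84 and lay above them.

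**Figure D1:**
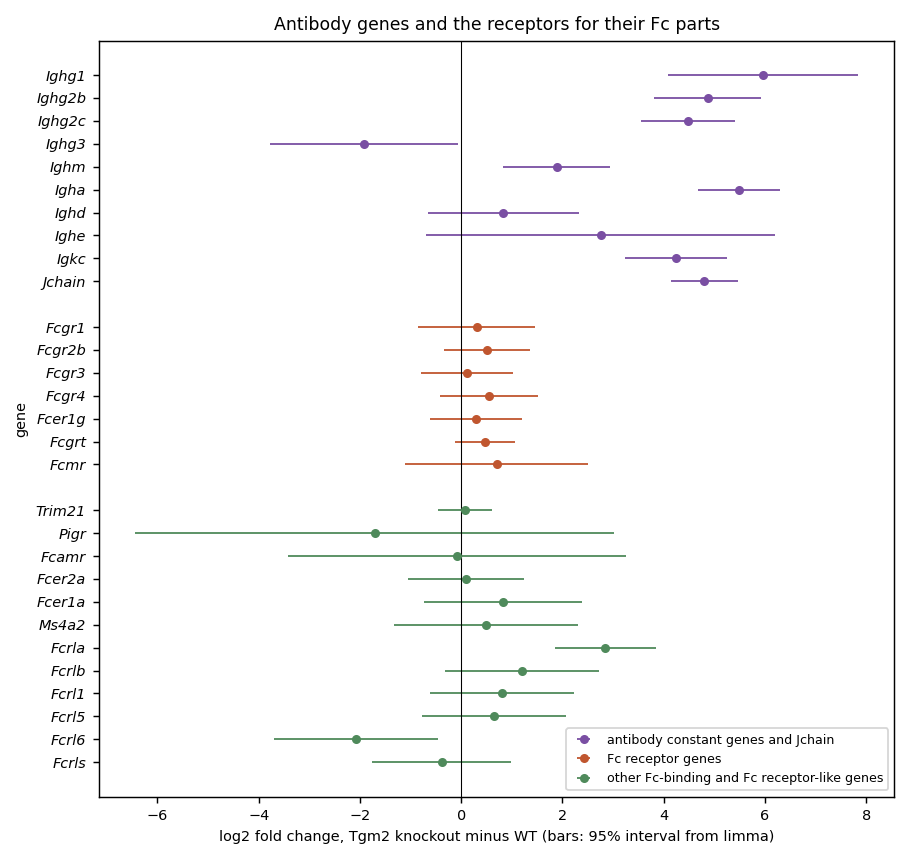
Log2 fold change of *Tgm2* knockout over WT tumors (x axis, n = 3 per group) with 95% intervals from limma for 10 antibody genes, the 7 Fc receptor genes and 12 other genes for Fc-binding or Fc receptor-like proteins. The receptor intervals all include 0, and those of *Igha*, *Igkc*, *Ighg2b*, *Ighg2c* and *Jchain* lie above 3.

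The ligands of the receptors are described first. *Ighg2c*, the IgG2 heavy chain of C57BL/6 mice and a strong ligand of the activating receptors FcγRI and FcγRIV, had 2738, 1507 and 3682 normalized counts in WT tumors and 34177, 73174 and 68331 in knockout tumors. It was 4.49 higher on the log2 scale, with a standard error of 0.40 (limma adjusted p = 0.00763), but the call was lost without WT tumor 1 (adjusted p = 0.058) or WT tumor 2 (0.067). The other called genes were *Igha* of the IgA heavy chain (log2 fold change 5.49), *Ighg2b* of IgG2b (4.87), *Jchain*, which joins IgA and IgM into polymers (4.80), and the light chain gene *Igkc* (4.25). The call of *Igha* was lost without WT tumor 2 (limma adjusted p = 0.051), and that of *Ighg2b* without WT tumor 1 (0.072) or 2 (0.095). That of *Igkc* was lost without WT tumor 1 (0.12), WT tumor 2 (0.18) or knockout tumor 2 (0.055). With a block for the replicate number, *Ighg2c* and *Igkc* were not called. *Ighg1*, the chain of IgG1, which is bound by FcγRIII and the inhibitory FcγRIIB, had 161, 115 and 806 in WT tumors and 43621, 12130 and 6936 in knockout tumors. Its log2 fold change of 5.96 had a standard error of 0.82 and did not pass (adjusted p = 0.0657 from limma). *Ighm*, the IgM chain and the ligand of the *Fcmr* product, had 6869, 1926 and 2681 in WT tumors and 9546, 10525 and 17862 in knockout tumors, again with no overlap (adjusted p = 0.542 from limma). *Ighg3* alone of the 10 had a negative log2 fold change, -1.92, which was -0.91 without WT tumor 3. Its WT tumors had 1192, 488 and 6155 and its knockout tumors 497, 234 and 569 normalized counts, so that the groups overlapped. *Ighe*, the chain of IgE, was at or near 0 except in knockout tumor 1, with 138 normalized counts.

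*Fcgr1* encodes FcγRI, the high-affinity IgG receptor of macrophages and dendritic cells. Its position in GRCm38 is chromosome 3, 96282909 to 96293969, minus strand. WT tumors 1 to 3 had 1636, 1457 and 553 normalized counts, and knockout tumors 1 to 3 had 729, 2291 and 1484. WT tumor 3 and knockout tumor 1 were the lowest, so the groups overlapped. The log2 fold change was 0.30 (standard error 0.51, 95% interval -0.86 to 1.47, adjusted p = 0.944 from limma). It was -0.19 without WT tumor 3, -0.08 without knockout tumor 2 and 0.75 without knockout tumor 1.

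*Fcgr3* and *Fcgr4* encode FcγRIII and FcγRIV, the other activating IgG receptors. *Fcgr3* (chromosome 1, 171051174 to 171064935, minus strand) had 3669, 3077 and 2309 normalized counts in WT tumors and 1692, 5393 and 3625 in knockout tumors. The lowest and the highest of the 6 values were both knockout tumors. Its log2 fold change was 0.11 (standard error 0.40, 95% interval -0.80 to 1.03, adjusted p = 0.975 from limma), and it was -0.07 without WT tumor 3, -0.26 without knockout tumor 2 and 0.58 without knockout tumor 1. *Fcgr4* (chromosome 1, 171018920 to 171029761, plus strand) had 1293, 780 and 663 in WT tumors and 691, 2097 and 1458 in knockout tumors. Here 2 knockout tumors lay above all WT tumors and knockout tumor 1 lay within them. The log2 fold change was 0.55 (standard error 0.42, 95% interval -0.41 to 1.52, adjusted p = 0.896 from limma) and lay between 0.20 and 0.999 when 1 tumor was left out (0.35 without WT tumor 3).

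These activating receptors need the common γ chain, the product of *Fcer1g*, which carries the ITAM and holds them at the cell surface; it also serves the IgE receptor and several C-type lectins. *Fcer1g* (chromosome 1, 171229572 to 171234365, minus strand) had 3284, 2512 and 1604 normalized counts in WT tumors and 1636, 4296 and 3476 in knockout tumors. The tumors stood in the same order as for *Fcgr4*, from WT tumor 3 as the lowest to knockout tumor 2 as the highest. The log2 fold change was 0.29 (standard error 0.39, 95% interval -0.61 to 1.196, adjusted p = 0.931 from limma). It was 0.01 without WT tumor 3 or knockout tumor 2 and 0.71 without knockout tumor 1.

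*Fcgr2b* encodes FcγRIIB, the inhibitory IgG receptor of B cells and myeloid cells. It lies beside *Fcgr4* and *Fcgr3* on chromosome 1 (170958617 to 170976547, minus strand). WT tumors 1 to 3 had 3884, 1752 and 1840.5 normalized counts, and knockout tumors 1 to 3 had 2195, 4383 and 3814. WT tumor 1 lay with the 2 high knockout tumors, so the groups overlapped, and the log2 fold change was 0.52 (standard error 0.37, 95% interval -0.33 to 1.36, adjusted p = 0.895 from limma). Without 1 tumor it lay between 0.31 (WT tumor 2 left out) and 0.89 (WT tumor 1 left out), and it was 0.35 without WT tumor 3. *Fcgr2b* and *Fcgr3* are close relatives whose outer parts are nearly alike, and reads from them can be split wrongly: in the GENCODE M21 transcripts, 233 runs of 31 bases occurred in both, which is 13.4% of those of *Fcgr3* and 4.15% of those of *Fcgr2b*. The sum of both genes, which is free of that split, was 7553, 4829 and 4150 in WT tumors and 3886, 9777 and 7440 in knockout tumors, with a log2 difference of 0.30 (exact permutation test, p = 0.7). With all other genes counted, *Fcgr2b* shared 457 runs (8.15%), more than the 233 with *Fcgr3*, and the sum does not remove this further sharing. *Fcgr1* and *Fcer1g* shared 0 such runs with other genes, and *Fcgr4* shared 1.39% of its runs.

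*Fcgrt* encodes the heavy chain of the neonatal Fc receptor. On chromosome 7 (45092990 to 45103851, minus strand), it had 2834, 2947 and 1855 normalized counts in WT tumors and 2729, 4374 and 3408 in knockout tumors. This gene came closest to separating the groups among the members by its unadjusted p (0.109 from limma), with knockout tumor 1 just below WT tumors 1 and 2. The log2 fold change was 0.46 (standard error 0.26, 95% interval -0.13 to 1.06, adjusted p = 0.889 from limma), or 0.25 without WT tumor 3. Its partner *B2m*, which pairs with MHC class I as well, had 87716, 75661 and 37351 in WT tumors and 55787, 112926 and 110009 in knockout tumors, with the tumors in the same order as for *Fcer1g* (log2 fold change 0.49, limma adjusted p = 0.909).

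*Fcmr* encodes the IgM receptor of lymphocytes. On chromosome 1 (130865669 to 130880791, plus strand), it was the scarce member, with 19.6, 7.92 and 22.0 normalized counts in WT tumors and 19.3, 12.6 and 64.7 in knockout tumors. In these tumors 1 read was worth between 0.943 and 1.08 normalized counts, so *Fcmr* rested on an estimated 7.63 to 59.9 reads. Knockout tumor 3 alone stood above the rest: the log2 fold change was 0.70 with a standard error of 0.79 (limma adjusted p = 0.914), and it was 0.04 without that tumor and 0.95 without WT tumor 3. Knockout tumor 3 also had the highest summed B cell markers, 3000 normalized counts against 1166 to 2116 in the other 5 tumors; the part of B cells in the *Fcmr* value was not tested.

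**Figure D2:**
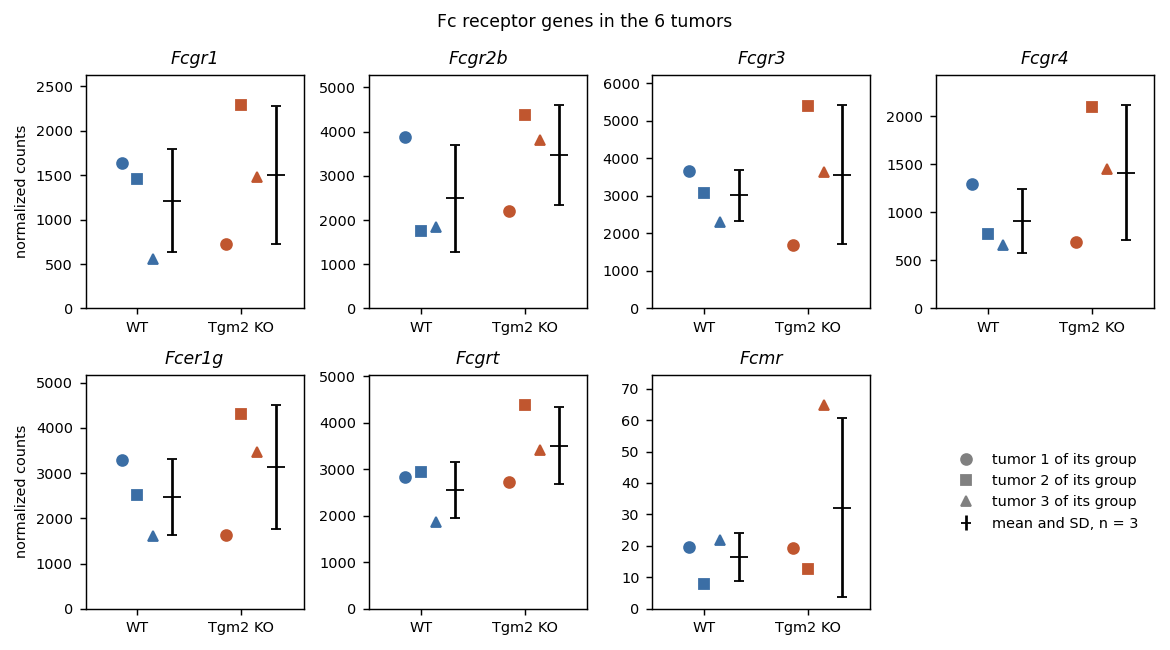
Normalized counts (y axis, linear from 0) of the 7 Fc receptor genes in each of 3 WT and 3 *Tgm2* knockout tumors, with symbols for tumors 1 to 3 of each group and bars for the mean and SD (n = 3). The groups overlap in every panel, and knockout tumor 2 is the highest tumor in all panels but that of *Fcmr*.

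The receptor genes were ranked against each other per length, as normalized counts per kilobase of transcript. The most abundant genes named for other lists are those with the highest normalized counts, not divided by length. Because the share of each transcript form is not in the table, each gene was given a range from its longest and shortest principal or alternative transcript in GENCODE M21. *Fcer1g* was the highest member in all 6 tumors on this scale, with 3660 per kilobase in the WT mean and 4653 in the knockout mean. *Fcgr3* followed with 2241 to 2280 in the WT mean, and *Fcgrt* with 1438 to 1589; *Fcgr3* was above *Fcgrt* in 5 of 6 tumors and below it in knockout tumor 1, so this pair changed places. *Fcgr4* (726 in the WT mean) was above *Fcgr1* (469) in all 6 tumors, and both were below *Fcgrt* in all 6. *Fcmr*, with 10.3 per kilobase in the WT mean, was lowest in every tumor. *Fcgr2b* could not be placed between *Fcgr3* and *Fcgr4*, since its principal and alternative transcripts range from 1084 to 3544 bases and its WT mean from 703 to 2299 per kilobase.

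The sequence before the start of the activating receptor genes is shown because the 3 genes share a match to the same short motif there, which was chosen after these sequences were seen. The myeloid factor PU.1 is known to drive Fcγ receptor genes in macrophages, and interferon-γ is known to induce *Fcgr1*. In RefSeq windows of 250 bases before to 50 after each start on GRCm38.p6, the PU.1-like octamer AGAGGAAG, searched on both strands, occurred in those of *Fcgr1*, *Fcgr3* and *Fcgr4*, and in 4.55% of the 32851 windows of all genes. The interferon-γ activated site, searched as TTCNNNGAA, which reads the same on both strands, occurred only in that of *Fcgr1* among the 7 genes, and in 8.30% of all windows. All 7 genes had a window, and those of *Fcgr2b*, *Fcer1g*, *Fcgrt* and *Fcmr* held neither run of letters. The last 120 bases before the annotated start are given below, 5′ to 3′ on the strand of the gene, with the octamer in capitals (its reverse complement, as found) and, in *Fcgr1*, also the interferon site. They lie at chr3:96293970-96294089 (minus strand), chr1:171059395-171059514 (minus strand) and chr1:171018806-171018925 (plus strand). For *Fcgr3* this start is that of the first of 2 RefSeq entries, near the first base (171059403) of its principal and alternative transcripts in GENCODE M21, while the gene span above also takes in a separate transcript that begins farther upstream, at 171064935. A match is a description of the sequence and not a measured binding site.
Fcgr1: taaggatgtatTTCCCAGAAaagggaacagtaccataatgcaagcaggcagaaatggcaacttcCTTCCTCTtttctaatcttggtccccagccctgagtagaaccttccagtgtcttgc
Fcgr3: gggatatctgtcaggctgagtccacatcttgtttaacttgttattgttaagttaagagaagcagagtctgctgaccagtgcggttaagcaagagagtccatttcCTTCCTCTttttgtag
Fcgr4: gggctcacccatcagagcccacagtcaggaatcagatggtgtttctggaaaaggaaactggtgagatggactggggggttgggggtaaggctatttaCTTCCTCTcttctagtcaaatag

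The octamer began 56 bases before the start in *Fcgr1*, 16 in *Fcgr3* (7 from its other start) and 23 in *Fcgr4*. The 3 genes with it varied alike between tumors, but members without it varied with them too. Across the 6 tumors of both groups, Pearson's r of the log2 values was 0.90 for *Fcgr1* with *Fcgr3*, 0.86 for *Fcgr1* with *Fcgr4* and 0.91 for *Fcgr3* with *Fcgr4*. *Fcer1g*, which has no such match, had r of 0.96, 0.95 and 0.95 with these 3, and *Fcgr2b*, also without one, had 0.73, 0.75 and 0.94. For *Fcgrt*, likewise without a match, r was 0.89, 0.73 and 0.84. *Fcmr* lay apart, with r from -0.15 to 0.38 with the other members. These values describe 6 tumors that also differed in their level of macrophage transcripts, and they carry no test.

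Genes among the 3 most like each member over the 6 tumors were found among 12986 tested genes with a mean of at least 100 normalized counts. For *Fcgr3* these were *Lyz2* (r = 0.996) and *Tyrobp* (0.991), of which the first encodes the lysozyme of macrophages and the second an ITAM adaptor of myeloid and NK cells. For *Fcer1g* they were *Ly86* and *C1qb* (r = 0.995 and 0.994), both transcribed in macrophages. For *Fcgr4* they were *Serpina3n*, *C5ar1* and *Mrc1*, for *Fcgr1* *Scly*, *Ifi211* and *Hexa*, and for *Fcgr2b* *Sirpa*, *Alg9* and *F10*, with r between 0.979 and 0.997. For *Fcgrt* (*Ywhab*, *Pygl* and *Tram1*) and *Fcmr* (*Ttyh3*, *Rbbp5* and *Yipf6*) r lay between 0.984 and 0.996. These are the highest of many r values over 6 points each, and they carry no test.

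The level of macrophage transcripts varied between tumors with the receptors. The 14 macrophage markers (among them *Adgre1*, *Csf1r*, *Cd68* and *C1qa*) summed to 96490, 72293 and 50088 normalized counts in WT tumors and 47307, 145685 and 105112 in knockout tumors, with *Lyz2* the most abundant. WT tumor 3 and knockout tumor 1 were the 2 lowest and knockout tumor 2 the highest in this sum, as in the sum of the receptors. The markers had a median log2 fold change of 0.41, beside 0.46 for the receptors. Without WT tumor 3 these medians were 0.093 and 0.25, and without knockout tumor 1 they were 0.83 and 0.75. Of the markers, 0 of 14 were called by limma (0.102% of all genes tested), 1 (*Mertk*) was higher at an unadjusted p of 0.05 (3.4% of all genes) and the groups overlapped in all 14 (they did not in 10.5% of all genes). Each receptor was therefore also taken relative to the mean log2 level of the 14 markers in the same tumor. The spread between tumors of 1 group then became smaller for the 6 abundant members, though little for *Fcgrt*. The within-group SD on the log2 scale went from 0.64 to 0.15 for *Fcer1g*, from 0.65 to 0.14 for *Fcgr3*, from 0.68 to 0.11 for *Fcgr4*, from 0.59 to 0.26 for *Fcgr2b* and from 0.85 to 0.43 for *Fcgr1*. For *Fcgrt* it was 0.36 before and 0.35 after, and for *Fcmr* it went from 0.99 to 1.13.

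**Figure D3:**
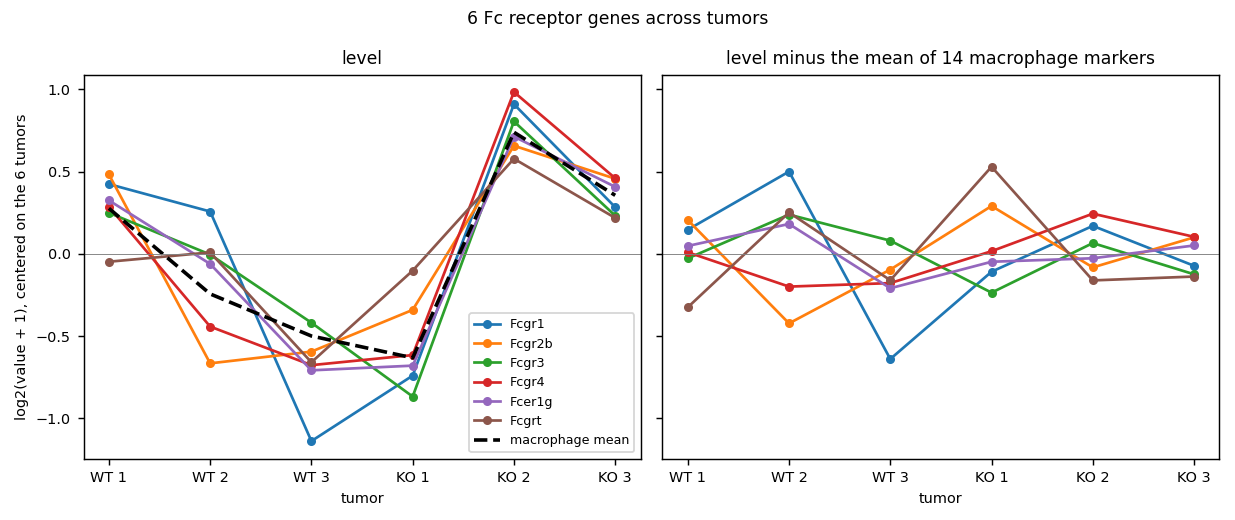
Log2(value + 1) of 6 Fc receptor genes in each tumor, centered on the mean of the 6 tumors (left, y axis), and the same after the mean of 14 macrophage markers was subtracted (right). Lines only join the points of 1 gene; on the left they run near the dashed macrophage mean, with knockout tumor 2 (KO 2) highest, and on the right the spread within groups is smaller, least so for *Fcgrt*.

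Relative to the macrophage markers, the groups differed by -0.01 for *Fcgr1* and *Fcer1g*, by -0.20 for *Fcgr3*, by 0.21 for *Fcgr2b* (0.048 without WT tumor 2 and 0.36 without WT tumor 1), by 0.15 for *Fcgrt* (-0.072 without knockout tumor 1 and 0.32 without WT tumor 2) and by 0.39 for *Fcmr* (-0.17 without knockout tumor 3) on the log2 scale, with overlapping groups (two-sided exact permutation tests, p between 0.2 and 1). *Fcgr4* differed by 0.24 without overlap: its relative level was -1.55, -1.76 and -1.73 in WT tumors and -1.54, -1.31 and -1.45 in knockout tumors (exact permutation test, p = 0.1, the smallest possible, and 1 of 7 genes compared). WT tumor 1 and knockout tumor 1 were nearly equal in it. With *Ptprc*, the pan-leukocyte gene CD45, in place of the markers, the difference was 0.10 for *Fcgr4*, 0.060 for *Fcgr2b*, 0.0070 for *Fcgrt*, 0.24 for *Fcmr*, -0.34 for *Fcgr3*, -0.15 for *Fcgr1* and -0.16 for *Fcer1g*.

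The balance of activating to inhibitory receptors, a ratio often used for how readily IgG stimulates myeloid cells, was taken within each tumor against *Fcgr2b*. The log2 ratio of *Fcgr4* to *Fcgr2b* was -1.59, -1.17 and -1.47 in WT tumors and -1.66, -1.06 and -1.39 in knockout tumors, a difference of 0.04 (exact permutation test, p = 0.8), which was -0.12 if knockout tumor 2 was left out. The ratio of *Fcgr1* to *Fcgr2b* was -1.25, -0.27 and -1.73 in WT tumors and -1.59, -0.94 and -1.36 in knockout tumors, a difference of -0.21 (p = 0.8 by the same exact test), which was 0.19 if WT tumor 2 was left out and -0.54 if WT tumor 3 was. That of *Fcgr3* to *Fcgr2b* was -0.08, 0.81 and 0.33 in WT tumors and -0.38, 0.30 and -0.07 in knockout tumors, a difference of -0.40 (p = 0.3 by the same exact test), which was -0.62 if WT tumor 1 was left out and -0.17 if WT tumor 2 was. The groups overlapped in all 3 ratios, and WT tumor 2 had the highest ratio of *Fcgr1* and *Fcgr3*. The last ratio also depends on how reads were split between *Fcgr3* and *Fcgr2b*.

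*Ighg2c*, *Ighg1* and *Ighm* were also set against genes of receptors that bind their products, in 4 ratios chosen after the values were seen. These mostly restate the antibody values above, and the other antibody genes were not set against a receptor. The log2 ratio of *Ighg2c* to *Fcgr1* was 0.74, 0.05 and 2.73 in WT tumors and 5.55, 4.997 and 5.52 in knockout tumors. The ratio of *Ighg2c* to *Fcgr4* was 1.08, 0.95 and 2.47 against 5.63, 5.12 and 5.55, and that of *Ighg1* to *Fcgr3* was -4.50, -4.72 and -1.52 against 4.69, 1.17 and 0.94. The groups did not overlap in these 3 ratios, but none passed, with differences of 4.18, 3.93 and 5.85 (two-sided exact permutation tests, p = 0.1 each, the smallest possible; adjusted p = 0.133 over 4 ratios). The ratio of *Ighm* to *Fcmr* differed by 1.19 and overlapped (exact permutation test, p = 0.2). That difference was 0.79 without WT tumor 3 and 1.57 without knockout tumor 3. Transcript ratios of this kind give no amount of antibody bound.

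**Figure D4:**
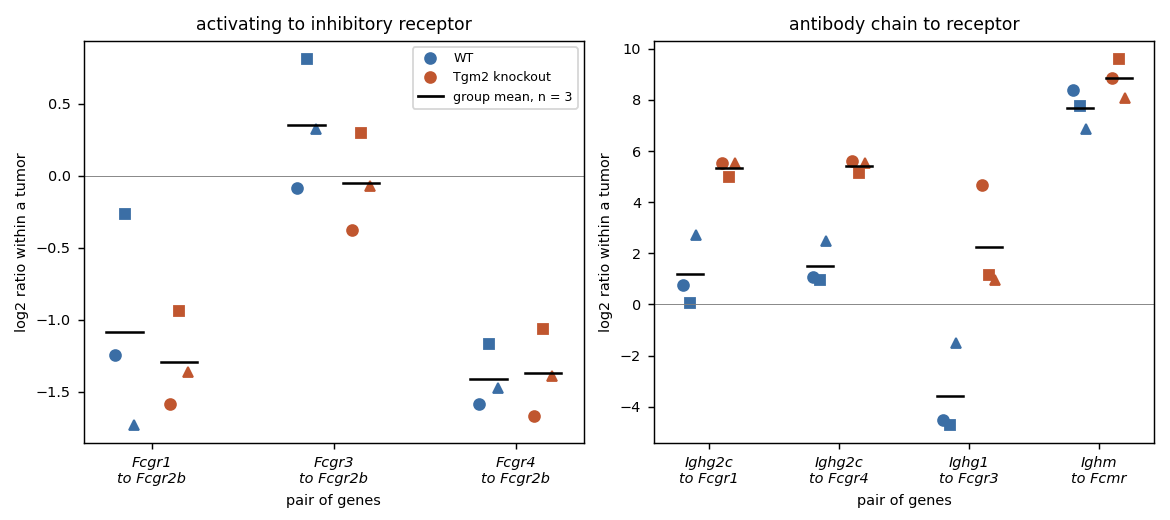
Log2 ratio of 2 genes within each tumor (y axis) for 3 activating receptors against *Fcgr2b* (left) and for 4 pairs of an antibody chain and its receptor (right), WT in blue and *Tgm2* knockout in orange, symbols for tumors 1 to 3 and lines for group means (n = 3). The groups overlap on the left and are apart in the first 3 pairs on the right.

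Of 12 other genes for proteins that bind Fc parts or resemble Fc receptors, 0 were called by limma, 1 was higher and 1 lower at an unadjusted p of 0.05 (3.4% and 2.38% of all genes tested), and their median log2 fold change was 0.30 (0.77 without WT tumor 3). *Fcrla*, an intracellular Fc receptor-like protein of B cells, had 33.8, 25.8 and 41.5 normalized counts in WT tumors and 219, 213 and 313 in knockout tumors. Its groups did not overlap, and the log2 fold change of 2.85 (standard error 0.44) did not pass (adjusted p = 0.110 from limma). *Fcrl1*, *Fcrl5* and *Fcrlb*, also known from B cells, were low, between 6.24 and 78.4 normalized counts, and their knockout tumors lay above the WT tumors, for the first 2 by less than 1 read between the nearest tumors, with log2 fold changes of 0.81, 0.64 and 1.197. *Fcrl6* was listed at 0 in all 3 knockout tumors and at 2.07 to 4.77 in the WT tumors, which is a few reads. *Trim21*, the cytosolic antibody receptor found in most cells, differed little in value, with 598 to 901 in WT tumors, 749 to 839 in knockout tumors and a 95% interval of -0.46 to 0.60.

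*Fcrls*, an Fc receptor-like gene of mouse macrophages and microglia, had 2546, 1805 and 605 normalized counts in WT tumors and 686, 2302 and 783 in knockout tumors, with overlapping groups and a log2 fold change of -0.39. The low-affinity IgE receptor *Fcer2a* had 37.7 to 59.5 in all tumors. The mast cell chains of the high-affinity IgE receptor, *Fcer1a* and *Ms4a2*, were highest in knockout tumor 2, at 166 and 40.3, against at most 58.5 and 17.4 elsewhere. *Pigr*, which carries polymeric IgA and IgM across epithelia, reached 9321 in WT tumor 3, against 10.6 to 332 elsewhere. It thus followed *Epcam* and *Cdh1* in that tumor, and its log2 fold change of -1.71 had a 95% interval of -6.44 to 3.02. *Fcamr*, the receptor for IgA and IgM, was at 29.4 in the same tumor and at most 7.85 elsewhere.

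Signaling genes below the receptors were taken as fixed lists. Of 16 genes of activating signaling, 0 were called and 2 were higher at an unadjusted p of 0.05, where 3.4% of all genes tested were: *Syk*, the kinase that docks on the ITAM, at 0.82 on the log2 scale (limma adjusted p = 0.789), and the phospholipase *Plcg2* at 0.78 (limma adjusted p = 0.804). *Syk* had 1105, 537 and 677 normalized counts in WT tumors and 1095, 1317 and 1550 in knockout tumors, so that WT tumor 1 lay just above knockout tumor 1. The list median was 0.28 (0.13 without WT tumor 3), and the most abundant genes *Prkcd*, *Lyn* and *Gab2* had log2 fold changes of -0.31, 0.26 and 0.27. Of 8 genes of inhibitory signaling, 0 were past an unadjusted p of 0.05, which 5.78% of all genes tested were. Their median log2 fold change was 0.09 (-0.075 without WT tumor 2 and 0.26 without WT tumor 1), and 5 of 8 were positive. *Inpp5d*, the SHIP1 phosphatase that acts through the ITIM of FcγRIIB, and *Ptpn6*, the SHP-1 phosphatase, had log2 fold changes of 0.64 and 0.30. The lowest was that of *Dok1*, -0.23.

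The 12 phagocytic effectors, subunits of the NADPH oxidase and actin regulators, had a median of 0.34 (0.070 without WT tumor 3 and 0.66 without WT tumor 1), with *Dock2* (log2 fold change 1.02, adjusted p = 0.782 from limma) the single gene past an unadjusted p of 0.05, as were 3.4% of all genes tested. *Tyrobp*, the ITAM adaptor that resembles the γ chain, had a log2 fold change of 0.08, and *Cd247*, the ITAM-bearing ζ chain of the T cell receptor complex, 0.71 with 91.7 to 122 normalized counts in WT tumors and 126 to 219 in knockout tumors. Of 8 receptors or chains that pair with the γ chain, 0 were past an unadjusted p of 0.05 (5.78% of all genes tested), and *Clec4n*, the most abundant, encoding Dectin-2, had a log2 fold change of -0.06.

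Because interferon-γ induces *Fcgr1* in macrophages, 12 genes of that response were set beside them. Their median log2 fold change was 1.12 (0.69 without WT tumor 3). By the adjusted limits 0 of 12 were called, and 6 were higher at an unadjusted p of 0.05, where 3.4% of all genes tested were. Among them were *Cxcl9* (log2 fold change 2.35), *Nos2* (1.52), *Iigp1* (1.30), *Ciita* (1.17) and *Gbp2* (1.12), with adjusted p between 0.433 and 0.832 from limma. *Cxcl9*, a chemokine that draws T cells, had 2131, 764 and 321 normalized counts in WT tumors and 1625, 5372 and 8048 in knockout tumors. Knockout tumor 3 was its highest, whereas *Fcgr1* and *Fcgr4* were highest in knockout tumor 2. *Irf1* and *Cxcl10* had log2 fold changes of 0.17 and -0.07, and *Ifng* itself was at 0.774 to 7.39 in WT tumors and 10.2 to 12.7 in knockout tumors, a few reads.

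Markers of the cells that carry Fc receptors were read in the same way. The neutrophil markers had a median of -0.36 (0.026 without knockout tumor 1), with *Ly6g*, *Ngp* and *Camp* at 0 in at least 1 tumor, and summed to 634 to 1294 normalized counts. The 6 NK cell markers summed to 219, 185 and 159 in WT tumors and 254, 375 and 472 in knockout tumors, and the 10 B cell markers to 1953, 1166 and 1416 and to 2116, 1847 and 3000. Their medians were 1.01 and 0.95. The B cell sums overlapped between the groups, whereas the mean log2 levels of these markers did not (5.51 to 6.35 in WT and 6.55 to 7.21 in knockout tumors). Calls in these lists were *Cd79a* of the B cell markers (1 of 10) and *Jchain* and *Mzb1* of the plasma cell markers (2 of 7), against 0.102% of all genes tested; that of *Cd79a* was lost without any 1 of the 6 tumors and that of *Mzb1* without WT tumor 2. The 6 monocyte markers had a median of 0.36 (-0.008 without WT tumor 3). Of their log2 fold changes 4 were positive, and they ranged from -1.02 to 2.28. The highest was that of *Ly6c2*, with 400, 250 and 238 in WT tumors and 785, 2223 and 1563 in knockout tumors (adjusted p = 0.212 from limma). The 6 mast cell markers had a median of 1.04 (0.57 without knockout tumor 2), the 10 endothelial markers 0.44 (0.28 without WT tumor 2), the 7 general leukocyte genes 0.51 (0.31 without knockout tumor 3 and 0.79 without knockout tumor 1), the 8 T cell markers 1.01, the 6 dendritic cell markers 1.46 and the 7 plasma cell markers 2.24.

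White adipocyte transcripts differed between tumors too. The 10 markers summed to 39692, 53392 and 28582 normalized counts in WT tumors and 43644, 160278 and 92442 in knockout tumors, with *Lpl* the most abundant. Their median log2 fold change was 1.96, 9 of 10 were higher at an unadjusted p of 0.05 (3.4% of all genes tested), 1 (*Lep*) was called (0.102% of all genes), a call lost without any 1 tumor, and their mean log2 levels did not overlap between the groups. Knockout tumor 2 had the highest and WT tumor 3 the lowest sum, as for the summed Fc receptor genes. With the mean of these markers as a covariate, the log2 fold change of 6 receptor genes changed sign, to between -1.81 (*Fcgr1*) and -0.25 (*Fcgr2b*), and that of *Fcmr* was 1.85. That fit called 0 of all 19667 genes. The 10 epithelial and mesothelial markers had a median of -0.32. The part of each cell type in the receptor values was not tested.

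**Figure D5:**
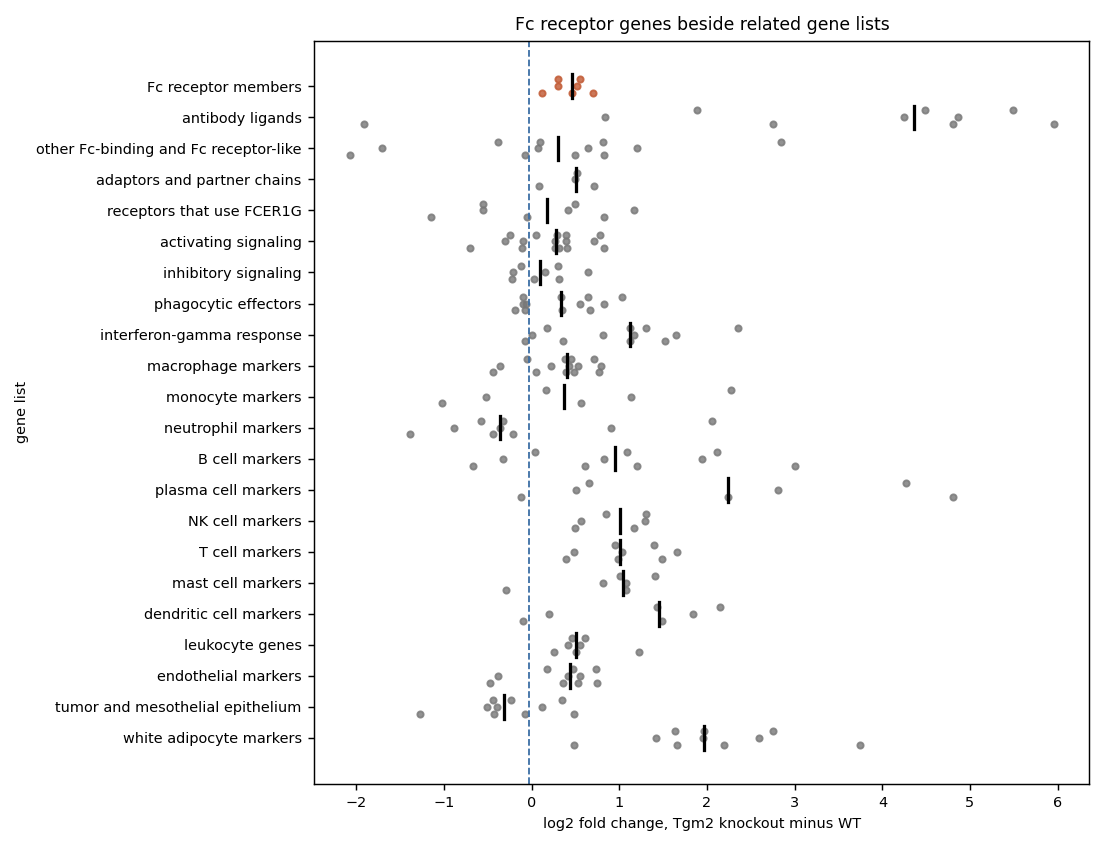
Log2 fold change (x axis) of each tested gene (point) in the 7 Fc receptor genes (orange) and 21 related lists (grey), with the list median as a black bar and the median of all 19667 genes, -0.03, as a dashed line. The receptor genes lie between 0.11 and 0.70, near the macrophage markers, while antibody genes reach 5.96.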

How the data were processed

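RNA of 6 primary tumors was sequenced by the authors as paired reads of 100 nucleotides. Per the labels and the study's methods, transcripts were quantified with kallisto 0.46.2 on GRCm38 and summed to genes through Ensembl mappings, genes with low expression were removed, and values were divided by DESeq2 size factors. The deposited values are therefore a normalized count signal; the table is labelled TPM, but its columns do not sum to a fixed total, and the values are mostly not whole, so no count model was fitted.

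Testing was limited to the 19667 of 20076 genes that reached 1 in 3 or more tumors, on log2(value + 1), which understates changes of low values. A linear model with 1 contrast was fitted to all 6 tumors in limma 3.58.1 (R 4.3.3), with a trend of variance on mean, two-sided tests and Benjamini-Hochberg adjustment over all genes. As in the study, calls needed an adjusted p below 0.05 and a log2 fold change beyond 1 in size. Single ratios were tested with exact permutation tests (scipy 1.17.1 under Python 3.11.15). The fits were tested on simulated data, and the outcome of that is not reported here. Labels give each tumor as a separate replicate, and with 3 per group the number of tumors limits the precision.

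The 7 members and the 22 gene lists, members included, were chosen with earlier results of these data known. For each list, the 3 most abundant genes and those with an unadjusted p below 0.05 could be named, and others as examples chosen after their values were seen; a few genes of this rule are not reported here; the antibody-to-receptor ratios were added after the values were seen. Gene positions and transcripts come from GENCODE M21 (GRCm38), the promoter windows from RefSeq (GRCm38.p6), and the value of 1 read from the steps between low values of the 4097 genes with 1 transcript.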

Additional observations from a re-analysis of the deposited data

How the results depend on the processing

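The alternatives changed the pseudocount (0.1 or 10), the filter, the scaling, the variance trend and the weights of tumors, added a replicate block or an adipocyte covariate, replaced the macrophage markers by *Ptprc* or *Adgre1*, or left out 1 tumor. In 16 alternatives for each of the 7 receptor genes, 0 fits brought a gene past the limits. The adipocyte covariate, which itself separates the groups, reversed 6 of them: *Fcgr1* to -1.81, *Fcgr3* to -1.54, *Fcer1g* to -1.22, *Fcgr4* to -0.91, *Fcgrt* to -0.45 and *Fcgr2b* to -0.25. Without 1 tumor, the log2 fold change ranged from -0.19 to 0.75 for *Fcgr1*, from 0.31 to 0.89 for *Fcgr2b*, from -0.26 to 0.58 for *Fcgr3*, from 0.20 to 0.999 for *Fcgr4*, from 0.01 to 0.71 for *Fcer1g*, from 0.25 to 0.63 for *Fcgrt* and from 0.04 to 1.18 for *Fcmr*. The ratio to *Fcgr2b* ranged from -0.54 to 0.19 for *Fcgr1*, from -0.62 to -0.17 for *Fcgr3* and from -0.12 to 0.18 for *Fcgr4*. Relative to the macrophage markers, the difference without 1 tumor ranged from -0.33 to 0.24 for *Fcgr1* (0.029 after quantile normalization), from 0.048 to 0.36 for *Fcgr2b*, from -0.28 to -0.12 for *Fcgr3*, from 0.18 to 0.31 for *Fcgr4*, from -0.12 to 0.073 for *Fcer1g*, from -0.072 to 0.32 for *Fcgrt* and from -0.17 to 1.16 for *Fcmr*. With *Adgre1* as the denominator it was 0.13 for *Fcgr4*, -0.31 for *Fcgr3*, 0.093 for *Fcgr2b*, 0.040 for *Fcgrt*, -0.13 for *Fcer1g*, -0.12 for *Fcgr1* and 0.28 for *Fcmr*. The 4 antibody-to-receptor ratios kept their direction in all 36 alternatives run on them, which were added after the data were seen. The cause of these shifts was not tested.

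The number of genes past the limits in the whole table was 20 higher and 0 lower. It was 5 higher with the replicate block, 4 without the variance trend, 0 with the adipocyte covariate, from 2 (without WT tumor 2) to 14 without 1 tumor, and 491 higher and 305 lower with an unadjusted p of 0.05; 0 or 1 gene was lower without 1 tumor. Of the 5 antibody genes, 3 were called with the replicate block (*Igha*, *Ighg2b*, *Jchain*), 2 without the variance trend (*Igha*, *Jchain*) and 0 with the adipocyte covariate. The calls of *Cd79a* and *Lep* were lost under these 3 settings and under quantile normalization, and that of *Lep* also with a pseudocount of 10. That of *Mzb1* was lost without the variance trend and with the covariate. The labels do not say that tumors with the same replicate number are paired. Deviations from the group means of such tumors had r of -0.20, 0.28 and -0.31, and 3 tumors per group are too few to decide this. No receptor gene was called with or without the replicate block, so the block had no receptor call to change. A pseudocount of 10 moved the list median to 0.76 for B cell and 1.29 for plasma cell markers. Without 1 tumor the median ranged from 0.72 to 1.16 for B cell, 1.74 to 2.56 for plasma cell and 0.67 to 1.39 for T cell markers, from -0.50 to -0.15 for epithelial markers and from 0.11 to 0.77 for the other Fc-binding genes. Other medians that moved by over 1.5 times ranged from 0.57 (without knockout tumor 2) to 1.47 for mast cell, 0.28 (without WT tumor 2) to 0.60 for endothelial and 0.31 (without knockout tumor 3) to 0.79 (without knockout tumor 1) for leukocyte genes. Those of the adaptors ranged from 0.31 to 0.82, of the partners of the γ chain from -0.14 to 0.57 and of inhibitory signaling from -0.075 to 0.26. Depth limits *Fcmr*, *Fcrl6* and *Ifng*, which rest on few reads.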
